A study of Mus musculus with 9 samples.

Results

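Neutrophils sorted from malignant skin tumors were compared with neutrophils sorted from skin around such tumors, gene by gene. The comparison used 4 of the 9 arrays of the series, tumor 1 and tumor 2 against tumor skin 1 and tumor skin 2, chosen by their sample titles and not by any measured value. All mice were wild-type FVB/N females, and all groups carried the same treatment, DMBA when the mice were 6 weeks old and again at 13 weeks, and PMA 2 times a week from week 1 to week 18 to 20. DMBA is a mutagen that starts skin tumors and PMA is a phorbol ester that promotes them, so that tumor skin was itself treated and was not normal skin. The other 5 arrays, papilloma skin 1 and 2 and papilloma 1 to 3, came from the skin around benign papillomas and from the papillomas. Cells were sorted as Gr-1bright neutrophils to a purity above 98%, and RNA of several mice was combined for each array, so that p-values measured the spread between pools and not between mice. Whether pools of lesion and skin shared mice is not given in the labels, and the main fit treated the arrays as unpaired. Papillomas and tumors were dissociated with collagenase IV, dispase II and DNase I and skin with collagenase IV alone, so that the enzymes and the tissue cannot be told apart in any comparison of a lesion with skin.

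Neutrophils are short-lived phagocytes that carry antimicrobial proteins in granules made during their maturation in the bone marrow, and they live largely on glycolysis. In tumors they can meet low oxygen, in which the hypoxia-inducible factors HIF-1 and HIF-2 escape degradation and turn on genes of glucose uptake, glycolysis, vessel growth and mitochondrial turnover. Neutrophils of tumors are also known to release chemokines and matrix proteases, and to restrain T cells through arginase, nitric oxide, adenosine and the checkpoint ligand PD-L1.

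Levels are log2 values from the table that the authors deposited, 1 value per probe and array, and the value of a gene is the median over its probes. A gene was called when the limma adjusted p over 34797 genes was at most 0.05, the absolute log2 fold change was at least 1, which is a doubling, and the mean level over the arrays was at least 6. The scanner output of the same arrays, quantile normalized and corrected for slide, served as the check. That slide correction was given the groups, so that it kept the differences between them. The neutrophil markers S100a8 and S100a9, the subunits of calprotectin, and Csf3r, the receptor of G-CSF, had levels of at least 16 on all 4 arrays, and the summed level of 10 neutrophil markers was 20.02 and 19.93 in tumor and 20.17 and 20.14 in tumor skin on the log2 scale. In RNA of whole samples, fewer cells of a type and less RNA per cell cannot be told apart. The column tumor 1 ranked closer to the scanner output of tumor 2 (Spearman's correlation 0.95 across probes) than to its own (0.83), whereas the other 3 columns ranked closest to their own output, at 0.93 to 0.98. Results are therefore also given without tumor 1, in which case the single tumor array is assumed to vary like the arrays of the other groups.

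Of 18817 genes at the level minimum, 957 rose in tumor and 559 fell, which made 8.06% called (4.36% of all 34797), 5.09% higher and 2.97% lower, at a median log2 fold change of 0.07. With each column centred on its 75th percentile the calls numbered 1509, and the share of rises went from 63.1% to 53.3%. Without tumor 1 there were 823 rises and 401 falls (4.37% and 2.13%), and without tumor 2 there were 467 and 136 (2.49% and 0.724%). Of the 1516 calls, 521 (34.4%) were kept whichever of the 4 arrays was left out. Slide 1 was the only slide with both groups, and adding slide to the limma fit as a term left 161 rises and 42 falls. The scanner output gave 109 rises and 108 falls, 0.72% and 0.713% of 15146 genes at the level minimum there. With slide as a term or without slide correction it gave no call, and the counts that follow are from the corrected output. Of the 1512 calls that the scanner output measured, 192 were called in it, 1484 (98.1%) had the same sign in it, against 70.7% of 18713 genes at the level minimum, and for 1364 (90.2%) the tumor arrays did not overlap the tumor skin arrays in either source, against 35.8%. Both sources hold the same 4 arrays, and a called gene is bound to have groups that lie apart in the table, so that these shares are a description. Of the 202 called genes that are in lists or are named by their size, 49 had several probes, and 17 of these had at least 1 probe that did not pass the p threshold or went the other way, which is said below where the probes differed by more than 1 on the log2 scale. Each list below is given by its counts and, for most lists, its median. Both are to be read against these shares and the median of the genes at the level minimum. A p in parentheses after an array is the limma adjusted p with that array left out.

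**Figure D1:**
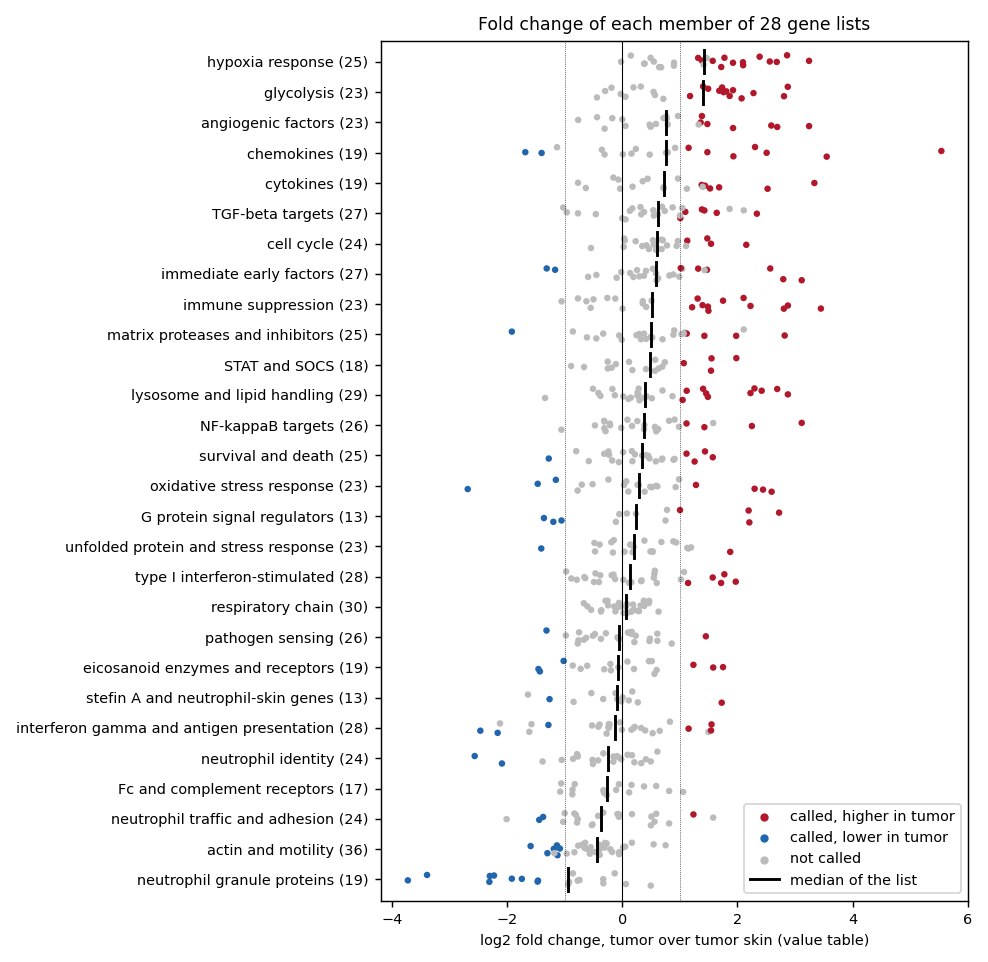
Log2 fold change of tumor over tumor skin for each member of 28 gene lists at the level minimum, 1 point per gene, with the number of members in brackets and black bars for list medians. Hypoxia response and glycolysis have the highest medians, at 1.41 and 1.40, and neutrophil granule proteins the lowest, at -0.94.

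Genes known to respond to low oxygen were the list with the highest median in tumor neutrophils. Of 25 such genes, all at the level minimum, 13 rose and none fell, against 5.09% that rose and 2.97% that fell among the genes at the level minimum, and the median of the list was 1.41 against 0.07 over those genes. With slide as a term 9 rose, without tumor 1 the count was 14, and all 13 were kept whichever of the 4 arrays was left out, with limma adjusted p between 0.0024 and 0.0446. The median was 1.19 between the arrays on slide 1 and 1.08 in the scanner output, in which 2 members were called and none fell. Adm, which encodes the vessel-dilating peptide adrenomedullin, had levels of 8.81 and 9.89 in tumor against 5.98 and 6.23 in tumor skin, a 9.47-fold rise (log2 fold change 3.24, SE 0.33, limma adjusted p = 0.00193). Its probe was not well above background on tumor skin 2. Ero1l, an oxidase that forms disulfide bonds in the endoplasmic reticulum, stood at 11.19 and 11.48 in tumor against 8.66 and 8.28 in tumor skin (log2 fold change 2.86, SE 0.22, limma adjusted p = 0.000644). Egln3, the prolyl hydroxylase PHD3 that marks the hypoxia-inducible factors for degradation and is itself their target, had levels of 13.30 and 13.06 in tumor against 10.73 and 10.27 in tumor skin, a 6.42-fold rise (limma adjusted p = 0.000644). Bnip3, which directs mitochondria to autophagy, stood at 15.30 and 15.09 in tumor against 12.85 and 12.43 in tumor skin, a 5.9-fold rise (limma adjusted p = 0.000644). For these 4 genes both tumor arrays lay above both tumor skin arrays, and the gap between the groups exceeded the gap within either group.

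Promoters are shown for these 4 genes and for Hk2, the glycolytic gene with the largest rise, because the core of the hypoxia response element can be read in such sequence. That core is ACGTG or GCGTG, and only the ACGTG form was searched for. Each spans 300 bases, most of them before the transcription start, from RefSeq on GRCm38.p6, written 5′ to 3′ on the strand of the gene, with ACGTG and its reverse complement CACGT in capitals. The 2 motifs overlap in CACGTG. They lie at chr7:110627407-110627706 on the plus strand for Adm, and on the minus strand at chr14:45318523-45318822 for Ero1l, listed as Ero1a in the reference, chr12:54203825-54204124 for Egln3, chr7:138909457-138909756 for Bnip3 and chr6:82774405-82774704 for Hk2.
Adm: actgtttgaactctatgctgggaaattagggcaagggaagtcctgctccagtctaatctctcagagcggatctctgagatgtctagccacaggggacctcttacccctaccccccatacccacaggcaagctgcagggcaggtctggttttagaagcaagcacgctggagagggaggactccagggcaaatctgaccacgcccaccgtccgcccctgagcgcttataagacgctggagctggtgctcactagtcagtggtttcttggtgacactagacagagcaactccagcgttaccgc
Ero1l: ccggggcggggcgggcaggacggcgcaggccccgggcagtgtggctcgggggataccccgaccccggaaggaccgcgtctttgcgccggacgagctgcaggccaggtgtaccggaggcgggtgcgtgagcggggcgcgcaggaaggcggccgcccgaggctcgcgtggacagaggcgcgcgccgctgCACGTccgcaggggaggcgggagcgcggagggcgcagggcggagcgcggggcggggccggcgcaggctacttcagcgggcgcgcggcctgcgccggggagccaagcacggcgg
Egln3: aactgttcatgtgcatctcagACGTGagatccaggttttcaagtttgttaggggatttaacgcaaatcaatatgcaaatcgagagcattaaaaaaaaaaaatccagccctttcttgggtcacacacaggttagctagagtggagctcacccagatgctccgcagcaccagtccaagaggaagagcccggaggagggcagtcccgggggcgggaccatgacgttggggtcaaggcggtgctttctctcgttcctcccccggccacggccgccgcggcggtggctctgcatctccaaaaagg
Bnip3: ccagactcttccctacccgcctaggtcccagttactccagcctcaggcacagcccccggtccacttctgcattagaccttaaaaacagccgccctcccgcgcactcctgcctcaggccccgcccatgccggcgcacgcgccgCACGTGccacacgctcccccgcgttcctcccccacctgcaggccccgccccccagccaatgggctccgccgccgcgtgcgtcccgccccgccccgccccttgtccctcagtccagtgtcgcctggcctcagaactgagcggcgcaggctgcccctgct
Hk2: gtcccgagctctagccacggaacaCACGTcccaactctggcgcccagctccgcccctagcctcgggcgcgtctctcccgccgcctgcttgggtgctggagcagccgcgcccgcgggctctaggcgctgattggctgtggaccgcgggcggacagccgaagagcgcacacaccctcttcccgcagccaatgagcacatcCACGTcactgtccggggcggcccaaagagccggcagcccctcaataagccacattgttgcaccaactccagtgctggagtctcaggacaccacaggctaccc
The ACGTG form was found once each in Ero1l, Egln3 and Bnip3, in 2 places in Hk2, and not in this window of Adm. The window of Adm does hold CACGC, the reverse complement of GCGTG, and the GCGTG form was not counted in any promoter. The shares that follow are of the ACGTG form. Of 27025 promoters in the reference, 5315 (19.7%) held it on either strand, as did 2623 of the 10548 (24.9%) that could be matched to genes at the level minimum. Among the hypoxia genes it was in 9 of 13 promoters (69.2%) of those that rose and in 5 of 7 (71.4%) of those that did not pass the test, for which 5 promoters were not matched. In the glycolysis list it was in 7 of 13 (53.8%) and in 4 of 9 (44.4%). A match is a description of the letters and not of binding.

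Among the other 9 hypoxia genes that rose, Hilpda, a regulator of lipid droplets, rose by 2.38, the histone demethylase gene Kdm3a by 2.10, and P4ha1, which hydroxylates collagen, by 2.10 on the log2 scale. Ankrd37 rose by 1.77, the cytokine gene Mif by 1.72, Ddit4, an inhibitor of mTORC1, by 1.57 and the mitochondrial gene Higd1a by 1.32. The remaining 2 were Slc2a1 and Vegfa, described below. Hif1a itself, which encodes the oxygen-regulated subunit of HIF-1 and is controlled mostly at the protein, had levels of 10.26 and 10.24 in tumor against 9.96 and 9.76 in tumor skin (limma adjusted p = 0.252). Car9, often used as a marker of hypoxia in epithelium, had a log2 fold change of -0.02 (limma adjusted p = 0.969). The median of the list was 1.42 in papilloma over papilloma skin.

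Glycolysis stood next to the hypoxia response. Of its 23 genes, 13 rose and none fell, with a median of 1.40, and 11 of the 13 were kept whichever array was left out. With slide as a term 6 rose, at a median of 1.42. Ldha lost the call without tumor 1 (0.087), tumor 2 (0.117) and tumor skin 2 (0.0748) and Pfkl without tumor 1 (0.0663), tumor 2 (0.0563) and tumor skin 2 (0.0559). Hk2, a hexokinase that traps glucose in the cell, had levels of 12.71 and 12.71 in tumor against 9.82 and 9.86 in tumor skin, a 7.33-fold rise (log2 fold change 2.87, SE 0.12, limma adjusted p = 0.000177). Slc2a1, the glucose transporter GLUT1, stood at 16.16 and 15.85 in tumor against 14.32 and 13.85 in tumor skin (log2 fold change 1.92, SE 0.24, limma adjusted p = 0.00396). Tpi1, triosephosphate isomerase, had levels of 14.10 and 14.13 in tumor against 12.13 and 11.55 in tumor skin (log2 fold change 2.28, SE 0.23, limma adjusted p = 0.00177). In all 3 genes the groups were apart by more than the arrays within them. Rises also covered the regulators Pfkfb3 (2.07) and Pdk1 (1.86), of which the first makes an activator of phosphofructokinase and the second keeps pyruvate out of the mitochondria, and the enzymes Eno2 (2.81), Hk1 (1.81), Pfkp (1.76), Aldoc (1.73), Ldha (1.68), Pgam1 (1.49), Pfkl (1.40) and Pgk1 (1.18), all on the log2 scale. The 3 probes of Hk1 differed, with the brightest at 0.22 and the others at 1.81 and 1.43. Slc2a3, the transporter GLUT3, had a log2 fold change of -0.03 (limma adjusted p = 0.961). Gapdh, at 0.71, passed the p threshold (limma adjusted p = 0.0342) but not the fold. Of the 30 genes of the respiratory chain and ATP synthase none was called, with a median of 0.06 and a range of -0.67 to 0.63, and 1 of them, Cox4i1, had a limma adjusted p below the threshold, at 0.0473.

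**Figure D2:**
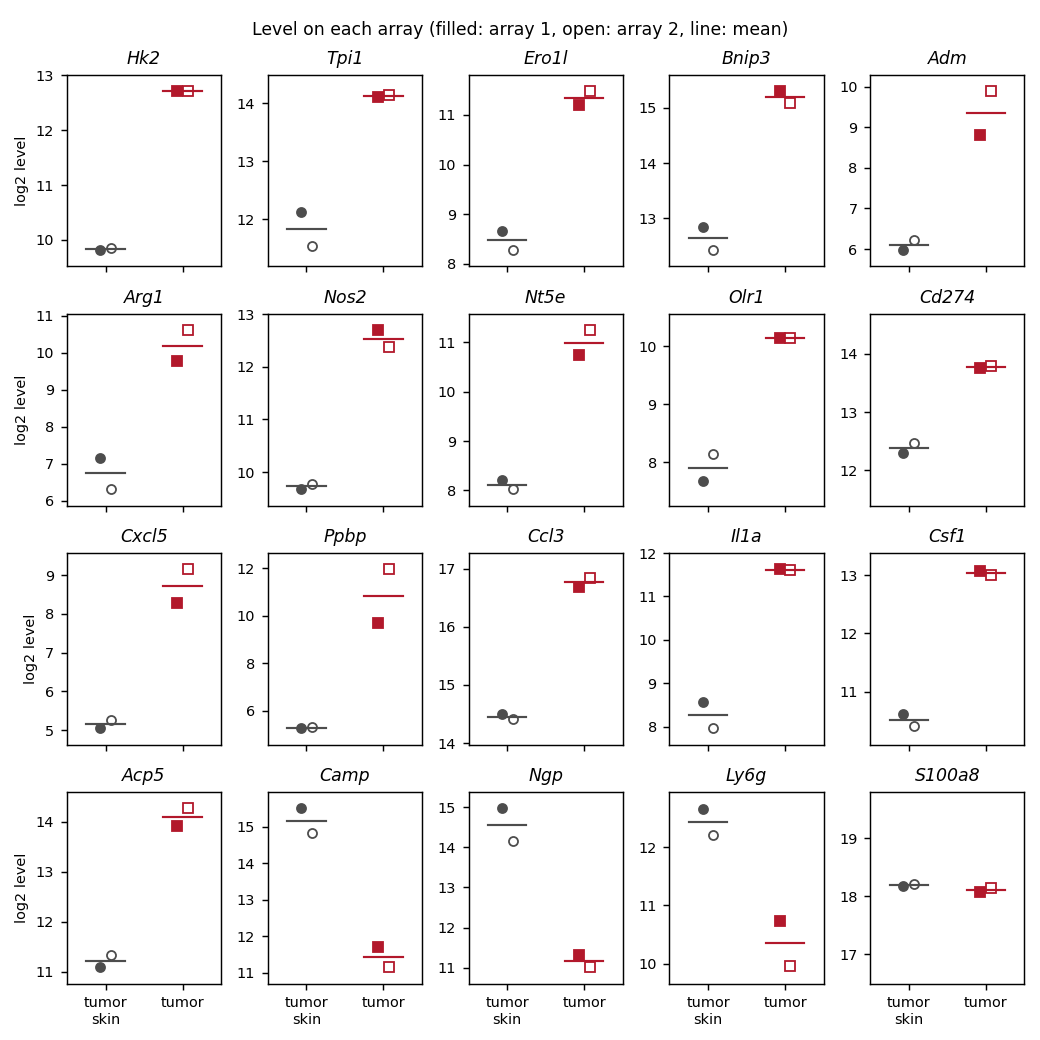
Log2 level of 20 genes on each of the 4 arrays, in tumor skin (grey circles) and tumor (red squares), with array 1 filled, array 2 open and a line at the mean of each group. The scale differs between panels, the arrays of the groups overlap in none of them, and S100a8 has the smallest gap between the means.

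Genes tied to the restraint of T cells formed the group with the next largest count of rises. Of 23 such genes at the level minimum, 11 rose and none fell, with a median of 0.51. Without tumor 1 the count was 7, without tumor 2 it was 5, with slide as a term it was 4, and the scanner output gave 3 rises at a median of 0.18. Arg1, arginase 1, which depletes arginine, had levels of 9.77 and 10.61 in tumor against 7.16 and 6.32 in tumor skin, a 10.9-fold rise (log2 fold change 3.45, SE 0.60, limma adjusted p = 0.0127). It lost the call without tumor 2 (0.0957) and tumor skin 2 (0.0585), and its probe was not well above background on tumor skin 2. Nos2, the inducible nitric oxide synthase, stood at 12.70 and 12.37 in tumor against 9.68 and 9.78 in tumor skin (log2 fold change 2.81, SE 0.21, limma adjusted p = 0.000644). Nt5e, the ectoenzyme CD73 that makes adenosine, had levels of 10.74 and 11.24 in tumor against 8.21 and 8.03 in tumor skin (log2 fold change 2.88, SE 0.27, limma adjusted p = 0.00138). Olr1, the lectin-like receptor LOX-1, used as a marker of suppressive neutrophils, stood at 10.14 and 10.14 in tumor against 7.68 and 8.15 in tumor skin (log2 fold change 2.23, SE 0.18, limma adjusted p = 0.000748). These last 3 genes and Tnfrsf23, a decoy receptor for TRAIL with a rise of 2.11, were called whichever array was left out, as was Havcr2, the checkpoint receptor TIM-3, with a rise of 1.5.

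Cd274, which encodes PD-L1, had levels of 13.75 and 13.79 in tumor against 12.30 and 12.46 in tumor skin, a 2.63-fold rise (log2 fold change 1.39, SE 0.24, limma adjusted p = 0.0122). The tumor arrays lay above the tumor skin arrays with no overlap, and the change was 1.39 in the scanner output. Its call was lost without tumor 1 (0.0541), tumor 2 (0.0819) and tumor skin 1 (0.0559), at a log2 fold change of 1.41 without tumor 1. Pdcd1lg2, the other ligand of PD-1, rose by 1.31 and lost the call without tumor 1 (0.0851), tumor 2 (0.132) and tumor skin 1 (0.0929). Slfn4, an interferon-induced gene of myeloid cells, rose by 1.21 and lost the call without tumor 1 (0.156), tumor 2 (0.16) and tumor skin 2 (0.163). Ptgs2, the prostaglandin-forming enzyme COX-2, is described with the eicosanoid genes. Siglec5, which encodes the lectin Siglec-F of eosinophils and of some neutrophils, stood at 11.18 and 11.16 in tumor against 9.94 and 9.42 in tumor skin (log2 fold change 1.49, SE 0.25, limma adjusted p = 0.011), with the call lost without tumor 1 (0.0528), tumor 2 (0.0725) and tumor skin 2 (0.0505). Its log2 fold change at the benign stage was -0.29 (limma adjusted p = 0.526). Among members that did not pass, Il10, the gene of the suppressive cytokine IL-10, had a log2 fold change of 0.35, Tgfb1 of -0.77 and Arg2 of -0.12. Arg1 is also a gene of macrophages, and the 13 monocyte and macrophage markers had lower summed levels in tumor, of 13.90 and 13.96 against 15.09 and 15.82 in tumor skin. Marker sums of some other cell types, such as keratinocytes, went the other way, as given below. The part of any of these cell types in the rise of Arg1 was not tested.

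Chemokines moved both ways. Of 19 chemokine genes at the level minimum 7 rose and 2 fell, with a median of 0.76, and 5 of these 9 calls were kept whichever array was left out, with 4 rises and no fall under slide as a term. Ppbp, whose product CXCL7 attracts neutrophils and which is abundant in platelets, had levels of 9.71 and 11.95 in tumor against 5.28 and 5.30 in tumor skin, a 46.5-fold rise (log2 fold change 5.54, SE 0.69, limma adjusted p = 0.0039). Cxcl5, an epithelial and myeloid attractant of neutrophils, stood at 8.28 and 9.15 in tumor against 5.06 and 5.27 in tumor skin, an 11.7-fold rise (log2 fold change 3.55, SE 0.29, limma adjusted p = 0.00084). Neither probe was well above background on tumor skin 2. The 2 tumor arrays differed by more than 2 on the log2 scale for Ppbp, and both lay above tumor skin. Ccl3, which attracts monocytes and T cells, had levels of 16.68 and 16.84 in tumor against 14.51 and 14.41 in tumor skin (log2 fold change 2.30, SE 0.14, limma adjusted p = 0.000344), and its relative Ccl4 rose by 1.93. Cxcl3 rose by 2.51 and Cxcl2 by 1.48 on the log2 scale, both ligands of CXCR2, and Cxcl2 lost the call without tumor 1 (0.0858), tumor 2 (0.091) and tumor skin 2 (0.0716). Cxcl10, which attracts T cells, rose by 1.15 and lost the call without tumor 2 (0.0921) and tumor skin 2 (0.0632). Its 2 probes differed, at 2.04 and 0.27 (limma adjusted p = 0.364), and in the scanner output its log2 fold change was 0.02 with overlapping arrays and turned direction with slide as a term. Cxcl1, another ligand of CXCR2, had levels of 12.68 and 13.27 in tumor against 12.33 and 12.04 in tumor skin and did not pass (limma adjusted p = 0.177). The falls were Ccl6 (-1.40) and Ccl9 (-1.68), which both signal through CCR1. Ccl6 lost the call without tumor 2 (0.0542), and Ccl9 lost it without tumor 1 (0.0783), tumor 2 (0.132) and tumor skin 2 (0.0912). The receptors on which neutrophils follow these signals were not called, with Cxcr1 at 0.17 (limma adjusted p = 0.674) and Cxcr2 at -0.52 (0.421).

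Of 19 cytokine genes at the level minimum, 6 rose and none fell, with a median of 0.72, and 3 rose with slide as a term. Il1a, an alarm cytokine of the IL-1 family, had levels of 11.62 and 11.60 in tumor against 8.58 and 7.97 in tumor skin, a 10.1-fold rise (log2 fold change 3.34, SE 0.32, limma adjusted p = 0.00146). Csf1, the growth factor of macrophages, stood at 13.07 and 13.00 in tumor against 10.62 and 10.41 in tumor skin, a 5.75-fold rise (log2 fold change 2.52, SE 0.14, limma adjusted p = 0.000305). Its 4 probes differed, with the brightest at 1.38, a pair at 2.54 and 2.50, and the dimmest at 0.34 (limma adjusted p = 0.638). The receptor antagonist Il1rn rose by 1.52 and Il18 by 1.38, and these 4 were kept whichever array was left out, whereas Il1f6 (1.68) and Il6 (1.44) were not. Il6 lost the call without tumor 2 (0.19), tumor skin 1 (0.111) and tumor skin 2 (0.0894), and Il1f6 without tumor 1 (0.053), tumor 2 (0.0982) and tumor skin 1 (0.0662). The main IL-1 gene of neutrophils, Il1b, had levels of 18.08 and 17.88 in tumor against 17.90 and 17.71 in tumor skin (limma adjusted p = 0.473), and Tnf had a log2 fold change of 0.71 (0.242). Keratinocytes also make Il1a, Il1f6 and Cxcl5, and the 18 keratinocyte markers on the array summed to 14.72 and 16.26 in tumor against 12.72 and 13.85 in tumor skin. Their part in these rises was not tested.

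Granule protein genes had the most falls of the 28 lists. Of 19 at the level minimum 9 fell and none rose, against 2.97% that fell among the genes at the level minimum, with a median of -0.94 in the table and -1.68 in the scanner output. With slide as a term Camp, Ngp and Cybb were called. Camp, the precursor of the antimicrobial peptide cathelicidin, had levels of 11.72 and 11.16 in tumor against 15.50 and 14.83 in tumor skin, 13.2-fold lower in tumor (log2 fold change -3.72, SE 0.35, limma adjusted p = 0.00138). Ngp, neutrophilic granule protein, stood at 11.33 and 11.02 in tumor against 14.97 and 14.16 in tumor skin (log2 fold change -3.39, SE 0.30, limma adjusted p = 0.00119). Ltf, lactoferrin, had levels of 12.01 and 13.01 in tumor against 14.98 and 14.66 in tumor skin (log2 fold change -2.31, SE 0.39, limma adjusted p = 0.0116). In each of them both tumor arrays lay below both tumor skin arrays. Also lower were Chi3l3 (-2.30), Cybb, the catalytic subunit of the phagocyte oxidase (-2.23), the collagenase gene Mmp8 (-1.92), Lyz2 (-1.74), Lyz1 (-1.47) and Lcn2 (-1.46). Camp, Ngp, Cybb and Mmp8 were called whichever array was left out. Ltf lost the call without tumor 1 (0.052) and tumor skin 1 (0.0525), Lcn2 without tumor 2 (0.0895) and tumor skin 2 (0.0586) and Lyz1 without tumor 2 (0.0612). Lyz2 lost it without tumor 1 (0.15), tumor 2 (0.185) and tumor skin 1 (0.192), and Chi3l3 without tumor 1 (0.0626), tumor 2 (0.179), tumor skin 1 (0.109) and tumor skin 2 (0.0734). Lyz1 and Lyz2 are near copies, and their probes may read each other. Genes of primary granules, which neutrophils make earliest in their maturation, were not called, with Elane at -0.33 (limma adjusted p = 0.361), Mpo at -0.13 (0.901) and Prtn3 at 0.06 (0.907). Mmp9, a gelatinase of late granules, had levels of 13.64 and 13.36 in tumor against 13.48 and 12.53 in tumor skin (limma adjusted p = 0.407). The median of the list was -1.35 in papilloma over papilloma skin.

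Other genes that mark neutrophils moved less. Of 24 at the level minimum 2 fell, Ly6g, the surface antigen of the sort, and Pglyrp1, a granule protein that binds bacterial cell walls, and none rose, at a median of -0.24. Ly6g had levels of 10.74 and 9.95 in tumor against 12.65 and 12.22 in tumor skin, 4.26-fold lower in tumor (log2 fold change -2.09, SE 0.33, limma adjusted p = 0.00849), and lost the call without tumor 2 (0.0605). Pglyrp1 stood at 13.09 and 12.52 in tumor against 15.32 and 15.41 in tumor skin (log2 fold change -2.56, SE 0.30, limma adjusted p = 0.00323). S100a8 differed by -0.09 (limma adjusted p = 0.676), S100a9 by -0.02 (0.944) and Csf3r by -0.15 (0.471), and the arrays of the groups overlapped for S100a9. The stefin A family, protease inhibitors abundant in mouse neutrophils, showed no call among its measured members, whereas Cstb, which encodes the related stefin B, rose by 1.73. S100a11, of the same list, fell by 1.26 and lost that call without tumor 2 (0.182), tumor skin 1 (0.0968) and tumor skin 2 (0.0878).

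Genes of lysosomes and lipid handling rose in part. Of 29 at the level minimum 10 rose and none fell, with a median of 0.39, and 7 were kept whichever array was left out. With slide as a term 3 rose. Acp5, the tartrate-resistant acid phosphatase known from osteoclasts, had levels of 13.90 and 14.27 in tumor against 11.10 and 11.33 in tumor skin, a 7.33-fold rise (log2 fold change 2.87, SE 0.18, limma adjusted p = 0.000386). Spp1, osteopontin, stood at 11.42 and 11.52 in tumor against 9.17 and 8.39 in tumor skin (log2 fold change 2.69, SE 0.28, limma adjusted p = 0.00213) and had no value in the scanner output used here. Abca1, which exports cholesterol, had levels of 11.20 and 11.32 in tumor against 8.72 and 8.96 in tumor skin (log2 fold change 2.42, SE 0.15, limma adjusted p = 0.000386). All tumor arrays lay above all tumor skin arrays in these genes. Cd63, a tetraspanin of granules and lysosomes, rose by 1.46, its relative Cd9 by 1.40, and the protease gene Ctsz by 1.12. Ctsl (1.49), Ctsb (1.05) and the lipid carrier gene Fabp4 (2.29) also rose. Ctsl lost the call without tumor 1 (0.0708), tumor 2 (0.141), tumor skin 1 (0.0669) and tumor skin 2 (0.0844), Ctsb without tumor 1 (0.05), tumor 2 (0.179), tumor skin 1 (0.111) and tumor skin 2 (0.0719) and Fabp4 without tumor 2 (0.19), tumor skin 1 (0.0916) and tumor skin 2 (0.118). The lysosomal membrane genes Lamp1 and Lamp2 had log2 fold changes of 0.28 and 0.42 and were not called.

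Within the oxidative stress list 4 genes rose and 3 fell of 23. The 3 that fell share a pathway, since G6pdx, Pgd and Taldo1 are enzymes of the pentose phosphate pathway, which makes the NADPH that feeds the phagocyte oxidase. G6pdx, its first and rate-limiting enzyme, had levels of 12.41 and 11.78 in tumor against 14.74 and 14.82 in tumor skin, 6.43-fold lower in tumor (log2 fold change -2.68, SE 0.25, limma adjusted p = 0.00144). Taldo1 fell by 1.47 and Pgd by 1.15 on the log2 scale, and Tkt, the transketolase of the same pathway, had a log2 fold change of -0.70 (limma adjusted p = 0.0215), short of the fold threshold. Taldo1 lost the call without tumor 2 (0.0544) and Pgd without tumor 2 (0.154) and tumor skin 1 (0.107), and G6pdx kept it for all 4 omissions. The genes that rose were Hmox1, which breaks down heme, at 2.30, the detoxifying enzymes Akr1b8 at 2.59 and Gsta4 at 2.44, and the peroxiredoxin Prdx6 at 1.28. The 2 probes of Hmox1 stood at 2.82 and 1.77 (limma adjusted p = 0.0514). Of the 4 rises that of Prdx6 was kept for all 4 omissions. Akr1b8 lost the call without tumor 2 (0.081) and tumor skin 1 (0.0553), Gsta4 without tumor 2 (0.138) and tumor skin 2 (0.0926) and Hmox1 without tumor 2 (0.212), tumor skin 1 (0.121) and tumor skin 2 (0.0929).

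Genes of movement had falls and no rises. Of 36 genes of actin and motility 6 fell, and the median was -0.44, with no call under slide as a term, where the median was -0.52. A negative log2 fold change was seen in 31 of the 36, against 8382 of the 18817 genes at the level minimum. Arhgdib, an inhibitor of small GTPases in blood cells, had levels of 12.99 and 12.56 in tumor against 14.50 and 14.23 in tumor skin (log2 fold change -1.59, SE 0.19, limma adjusted p = 0.00335) and was the 1 member kept whichever array was left out. Rac2, the Rac protein of blood cells that drives both motility and the oxidase, stood at 14.70 and 14.13 in tumor against 15.56 and 15.54 in tumor skin (log2 fold change -1.14, SE 0.23, limma adjusted p = 0.0209), and its call was lost without tumor 2 (0.126), tumor skin 1 (0.0754) and tumor skin 2 (0.0693). Was, an activator of actin branching, fell by 1.19, Arhgap15 by 1.30, Rhog by 1.12 and cofilin, Cfl1, by 1.08. Was lost the call without tumor 2 (0.0544) and Arhgap15 without tumor 2 (0.145) and tumor skin 1 (0.109). Rhog lost it without tumor 1 (0.0683), tumor 2 (0.143), tumor skin 1 (0.0544) and tumor skin 2 (0.0909), and Cfl1 without tumor 1 (0.0617), tumor 2 (0.105) and tumor skin 2 (0.0722). Actin itself, Actb, stood at 18.37 and 18.36 in tumor against 18.43 and 18.41 in tumor skin (limma adjusted p = 0.809).

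Among 24 genes of traffic and adhesion 1 rose and 2 fell. Alcam, an adhesion molecule, rose by 1.24, and Itga4, an integrin chain, and Selplg, the ligand of selectins, fell by 1.44 and 1.37. Alcam lost the call without tumor 2 (0.0544), Itga4 without tumor 2 (0.11) and tumor skin 1 (0.0698) and Selplg without tumor 2 (0.203), tumor skin 1 (0.137) and tumor skin 2 (0.0636). Of 13 regulators of G protein signals, which shorten the response of chemokine receptors, 4 rose and 3 fell. Rgs16 had levels of 8.98 and 9.52 in tumor against 6.15 and 6.91 in tumor skin (log2 fold change 2.72, SE 0.32, limma adjusted p = 0.00326), and Rgs1 stood at 13.27 and 13.88 in tumor against 11.44 and 11.31 in tumor skin (log2 fold change 2.19, SE 0.28, limma adjusted p = 0.00403). Both kept the call for all 4 omissions, and both tumor arrays lay above tumor skin. The falls, Rgs14 (-1.36), Rgs18 (-1.20) and Rgs19 (-1.06), were each lost in omissions, Rgs14 without tumor 1 (0.0646), tumor 2 (0.223) and tumor skin 1 (0.153), Rgs18 without tumor 2 (0.216) and tumor skin 1 (0.159) and Rgs19 without tumor 1 (0.0792), tumor 2 (0.252), tumor skin 1 (0.185) and tumor skin 2 (0.0598). The other rises were Rgs5 (2.21), a marker of pericytes, lost without tumor 1 (0.0728), tumor 2 (0.0791) and tumor skin 2 (0.0602), and Rgs12 (1.00), lost without tumor 1 (0.074), without tumor skin 2 (0.0674) and, by its level, without tumor 2.

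Transcription factors and signalling genes that cells switch on within minutes of a stimulus moved both ways. Of 27 immediate early factors at the level minimum 6 rose and 2 fell. Egr1 had levels of 16.23 and 16.45 in tumor against 14.06 and 13.49 in tumor skin, a 5.93-fold rise (log2 fold change 2.57, SE 0.23, limma adjusted p = 0.00127). Egr2 stood at 12.59 and 13.13 in tumor against 10.22 and 9.91 in tumor skin (log2 fold change 2.80, SE 0.27, limma adjusted p = 0.00155), and Ier3, a survival gene that is also in the NF-kappaB list, at 15.49 and 15.48 in tumor against 12.90 and 11.84 in tumor skin (log2 fold change 3.12, SE 0.35, limma adjusted p = 0.00293). All 3 were called whichever array was left out. Jun rose by 1.47, Maff by 1.32 and Dusp5 by 1.01, Fosb fell by 1.17 and Jund by 1.31, and Fos had a log2 fold change of 0.41 (limma adjusted p = 0.302). Jun lost the call without tumor 2 (0.0924) and tumor skin 2 (0.0606), Fosb without tumor 1 (0.0522) and tumor skin 2 (0.0505) and Dusp5 without tumor 1 (0.124), tumor 2 (0.177) and tumor skin 2 (0.145). These genes also respond to tissue dissociation, which differed between lesions and skin, and the part of that step cannot be told apart.

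Several lists of signalling targets and regulators had rises and no falls. Among 26 NF-kappaB targets 4 rose and none fell, at a median of 0.38, and among them the kinase gene Ikbke stood at 9.24 and 9.24 in tumor against 6.97 and 7.01 in tumor skin (log2 fold change 2.25, SE 0.24, limma adjusted p = 0.00219). Of 27 TGF-beta targets 6 rose, at a median of 0.62, led by Smad7, the inhibitor of the pathway, with levels of 10.76 and 11.07 in tumor against 8.64 and 8.51 in tumor skin, a 5.05-fold rise (log2 fold change 2.34, SE 0.19, limma adjusted p = 0.00084). Plau, the protease urokinase, was the NF-kappaB target that lost the call, without tumor 2 (0.125) and tumor skin 1 (0.0912). The co-repressor gene Tgif1 rose by 1.64 and Id1 by 1.43, whereas Tgfb1, which encodes the ligand, had levels of 9.58 and 8.89 in tumor against 10.08 and 9.93 in tumor skin (limma adjusted p = 0.115). Smad7 and Vegfa were the TGF-beta targets kept for all 4 omissions, and Tgif1 lost the call without tumor 2 (0.0599), Id1 without tumor 1 (0.0527), Ctgf without tumor 2 (0.106), tumor skin 1 (0.0924) and tumor skin 2 (0.0726) and Skil without tumor 1 (0.0813), tumor 2 (0.0924), tumor skin 1 (0.0619) and tumor skin 2 (0.0708). Of 18 genes of the STAT and SOCS families 4 rose, at a median of 0.49, namely Cish, with levels of 11.77 and 11.21 in tumor against 9.50 and 9.52 in tumor skin (log2 fold change 1.98, SE 0.28, limma adjusted p = 0.00593), Socs1 (1.55), Jak3 (1.54) and Socs3 (1.07), of which the SOCS genes and Cish are feedback inhibitors of cytokine receptors. Of these 4 Socs3 was lost in omissions, without tumor 1 (0.0732), tumor 2 (0.0819) and tumor skin 2 (0.0661). The median of this list was -0.06 in the scanner output.

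Angiogenic factors had 7 rises among 23 at a median of 0.76, including Vegfa, with levels of 13.53 and 13.78 in tumor against 12.35 and 12.20 in tumor skin (log2 fold change 1.38, SE 0.15, limma adjusted p = 0.00233), and Hbegf, a ligand of the EGF receptor, with levels of 10.53 and 10.12 in tumor against 7.82 and 7.67 in tumor skin (log2 fold change 2.59, SE 0.24, limma adjusted p = 0.00138). Both were kept for all 4 omissions, as were Adm and Spp1. Angpt2, which loosens vessels, rose by 1.36 and lost the call without tumor 2 (0.174) and tumor skin 1 (0.116), and Ereg, another EGF receptor ligand, rose by 1.92 and lost it without tumor 2 (0.211), tumor skin 1 (0.148) and tumor skin 2 (0.0512).

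Interferon genes did not move as a block. Of 28 genes stimulated by type I interferon 5 rose and none fell, with a median of 0.14 in the table and -0.55 in the scanner output. Rsad2, the antiviral protein viperin, had levels of 11.35 and 11.46 in tumor against 9.45 and 9.42 in tumor skin (log2 fold change 1.97, SE 0.27, limma adjusted p = 0.0055), and its change was 0.47 in the scanner output. Ifit1 stood at 10.07 and 9.96 in tumor against 8.10 and 8.39 in tumor skin (log2 fold change 1.77, SE 0.26, limma adjusted p = 0.00669) against 0.69 in the scanner output. Isg15 (1.72) and Usp18 (1.57), a ubiquitin-like modifier and the protease that removes it, also rose, but Isg15 lost the call without tumor 1 (0.115), tumor 2 (0.118) and tumor skin 2 (0.1) and Usp18 without tumor 1 (0.116), tumor 2 (0.117), tumor skin 1 (0.115) and tumor skin 2 (0.0635). Herc6 rose by 1.14. The log2 fold change of Usp18 in the scanner output was -0.0019. Of 28 genes of the interferon gamma response and antigen presentation 3 rose, Irgm1 (1.54), Cxcl10 and Socs1, and 3 fell. Irgm1 lost the call without tumor 2 (0.097) and tumor skin 2 (0.0528) and Ciita without tumor 2 (0.126) and tumor skin 1 (0.0833). Those that fell serve MHC class II, namely Ciita, its master regulator (-1.28), H2-Ab1 (-2.16) and Cd74, the invariant chain, with levels of 10.73 and 10.68 in tumor against 12.79 and 13.55 in tumor skin (log2 fold change -2.46, SE 0.50, limma adjusted p = 0.0219). Cd74 lost the call without tumor 1 (0.079), tumor 2 (0.118) and tumor skin 2 (0.0852), and H2-Ab1 without tumor 1 (0.152), tumor 2 (0.164), tumor skin 1 (0.0555) and tumor skin 2 (0.161). The summed level of dendritic cell markers, which include H2-Ab1 and Cd74, was 11.92 and 12.04 in tumor and 13.67 and 14.47 in tumor skin. Classical MHC class I genes were not called, with H2-K1 at 0.33 and B2m at -0.53.

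Survival genes had 4 rises and 1 fall among 25, at a median of 0.34. Bcl2l1, which encodes the survival protein BCL-XL, had levels of 12.83 and 12.63 in tumor against 11.18 and 11.13 in tumor skin (log2 fold change 1.57, SE 0.20, limma adjusted p = 0.00428), and Bcl2a1d, a survival gene of neutrophils with close copies, rose by 1.11. Casp8 rose by 1.44 and the death effector Bax by 1.26, and Bid fell by 1.28. Mcl1, on which neutrophil survival depends, had a log2 fold change of 0.58 (limma adjusted p = 0.168). Bax lost the call without tumor 2 (0.175), tumor skin 1 (0.0763) and tumor skin 2 (0.0953) and Bid without tumor 2 (0.0979) and tumor skin 1 (0.0628), and the other 3 kept it for all 4 omissions. Cell cycle genes, of which 24 were at the level minimum, included 4 rises, 2 of them the inhibitors Cdkn1a (2.15) and Cdkn2a (1.54). Of the 24, 23 had a positive log2 fold change, against 10435 of the 18817 genes at the level minimum. The median of the list was 0.60 in the table and 1.58 in the scanner output. Mki67, the proliferation marker Ki-67, had levels of 8.47 and 9.38 in tumor against 8.66 and 9.12 in tumor skin (limma adjusted p = 0.961). The 2 probes of Cdkn2a differed, at 2.62 and 0.46 (limma adjusted p = 0.294), and those of Cdkn1a ranged from 0.14 to 2.15, with the brightest at 1.35. Cdkn2a was kept for all 4 omissions, and Cdkn1a lost the call without tumor 2 (0.0544). The other rises, Ube2c (1.48) and Pcna (1.13), act in mitosis and DNA replication. Ube2c lost the call without tumor 1 (0.0641), tumor 2 (0.254) and tumor skin 1 (0.18), and Pcna lost it without tumor 2 (0.116) and tumor skin 2 (0.0713).

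Of 25 matrix proteases and inhibitors 4 rose and 1 fell. Mmp3, stromelysin, with levels of 7.82 and 9.14 in tumor against 5.39 and 5.92 in tumor skin (log2 fold change 2.82, SE 0.45, limma adjusted p = 0.00885), and the collagenase Mmp13, at 6.64 and 8.07 in tumor against 5.03 and 5.72 in tumor skin (log2 fold change 1.98, SE 0.49, limma adjusted p = 0.0408), were not well above background on tumor skin 2. Mmp13 lost the call without tumor 2 (0.2), tumor skin 1 (0.155) and tumor skin 2 (0.0661). The other rises were Plau (1.43) and Adamts4 (1.12), of which Adamts4 lost the call without tumor 2 (0.0725) and tumor skin 2 (0.0531) and Plau as given above. The 2 probes of Adamts4 differed, at 2.0 and 0.24 (limma adjusted p = 0.554). Mmp3 and Mmp13 are known from fibroblasts and keratinocytes, whereas Mmp8, the neutrophil collagenase, was the fall.

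Eicosanoid genes moved both ways, with 3 rises and 3 falls of 19. Both cyclooxygenase genes rose, Ptgs2 with levels of 14.94 and 15.30 in tumor against 13.70 and 13.05 in tumor skin (log2 fold change 1.75, SE 0.28, limma adjusted p = 0.00932) and Ptgs1 at 11.43 and 11.81 in tumor against 10.43 and 10.35 in tumor skin (log2 fold change 1.23, SE 0.17, limma adjusted p = 0.00583), and Alox15, which eosinophils express, fell by 1.46. Ptgs2 lost the call without tumor 2 (0.0764) and Alox15 without tumor 2 (0.0631), and Ptgs1 kept it for all 4 omissions. Cysltr1, a leukotriene receptor, rose by 1.58 and lost the call without tumor 1 (0.0822), tumor 2 (0.144) and tumor skin 1 (0.109). Ptgds fell by 1.43 and lost the call in each of the 4 omissions, without tumor 1 (0.0704), tumor 2 (0.0741), tumor skin 1 (0.0516) and tumor skin 2 (0.0586). The 2 probes of Tbxas1, thromboxane synthase, differed in sign, at -2.15 and 0.12, so that its fall of 1.02 rests on 1 of them, and the call was lost without tumor 2 (0.0894) and tumor skin 2 (0.0552). Of 26 pattern recognition genes Clec4n, the fungal receptor dectin-2, rose by 1.45, and Tlr8 fell by 1.32 and lost the call without tumor 2 (0.0544). Of 17 genes in the list of Fc and complement receptors none was called. Nearest was Cfp, which encodes the complement regulator properdin and not a receptor, at a limma adjusted p of 0.0508. Of 23 stress response genes Trib3, a target of ATF4, rose, with levels of 9.83 and 9.90 in tumor against 8.00 and 7.99 in tumor skin (log2 fold change 1.87, SE 0.12, limma adjusted p = 0.000386), and Herpud1 fell by 1.41 and lost the call without tumor 2 (0.0605).

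Markers of other cell types differed between the groups as well, in spite of the sort. Keratinocyte markers had 6 rises among 17 at a median of 1.39, and their summed level, given above, did not overlap between the groups. Their median was 2.31 without tumor 1, 0.20 without tumor 2 and 0.54 between the arrays on slide 1. Krt14 lost the call without tumor 2 (0.196) and tumor skin 1 (0.134) and Krt16 without tumor 2 (0.0553). Red blood cell genes had 7 rises among 8 at a median of 2.48, with a summed level of 19.48 and 20.05 in tumor against 17.18 and 17.95 in tumor skin. Of these 7 only Slc4a1 and Ahsp were kept for all 4 omissions, and the other 5 lost the call without tumor 2, at limma adjusted p of 0.079 to 0.246. These were Hba-a1, Alas2, Hbb-b1, Hbb-b2 and Hba-a2, of which Alas2 was also lost without tumor skin 1 (0.0589), both Hbb genes without tumor 1 and tumor skin 1 (0.0529 to 0.11), and Hba-a2 in the other 3 omissions (0.0661 to 0.18). In the scanner output the median was 0.71, none was called by limma, and Slc4a1 turned direction, at -0.23 with the ComBat step and -0.29 with slide as a term.

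Markers of B cells and plasma cells, which had 3 falls among 6, summed to 9.85 and 10.57 in tumor against 13.49 and 15.33 in tumor skin, with Ms4a1, Pax5 and Tnfrsf17 among those below the level minimum. The sums in tumor skin lay close to the level of Igj alone, given below, and so rest mostly on that 1 gene. Eosinophil markers had 7 falls and 1 rise, Siglec5, among 9, with sums of 12.03 and 11.84 against 13.12 and 13.23, and their peroxidase gene Epx was below the level minimum. Those of monocytes and macrophages summed to 13.90 and 13.96 against 15.09 and 15.82, with falls of Emr1 (-2.10), the macrophage marker, and Ly6c1 (-2.35). Ly6c1 lost the call without tumor 1 (0.0548), tumor 2 (0.0826) and tumor skin 2 (0.0585). In these 3 types and in dendritic cells every tumor array lay below every tumor skin array. Fibroblast markers had 3 rises and 1 fall among 13, and their sums overlapped, at 13.15 and 14.38 against 13.29 and 13.45. The fall, Dcn, and 1 of the rises, Col6a1, lost the call in each of the 4 omissions, at limma adjusted p of 0.0738 to 0.175 for Dcn and 0.0581 to 0.132 for Col6a1, and Dcn had the opposite direction under 5 scanner settings, at 0.0428 to 0.32. Among natural killer cell markers Gzmb rose by 1.33 and lost the call without tumor 1 (0.0503) and tumor 2 (0.0504). Endothelial markers had 3 rises among 9, of which Cdh5 was lost without tumor 2 (0.129), tumor skin 1 (0.0949) and tumor skin 2 (0.0541), Egfl7 without tumor 2 (0.251), tumor skin 1 (0.118) and tumor skin 2 (0.136) and Esam without tumor 1 (0.0744), tumor 2 (0.248) and tumor skin 2 (0.162). The endothelial sums did not overlap, at 11.17 and 12.03 in tumor against 10.64 and 11.01 in tumor skin. In the scanner output 2 endothelial markers rose, at a list median of 2.33. Sums of T cell, natural killer cell, mast cell and smooth muscle markers differed by less than 1 on the log2 scale between any tumor and any tumor skin array. The T cell sums were 12.15 and 12.20 in tumor against 12.67 and 12.84 in tumor skin. Of 10 T cell markers 1 was called, Cd3d, which fell by 1.41 (limma adjusted p = 0.0036) and was also called in the scanner output, at -2.04. The part of these cell types in the calls above was not tested.

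**Figure D3:**
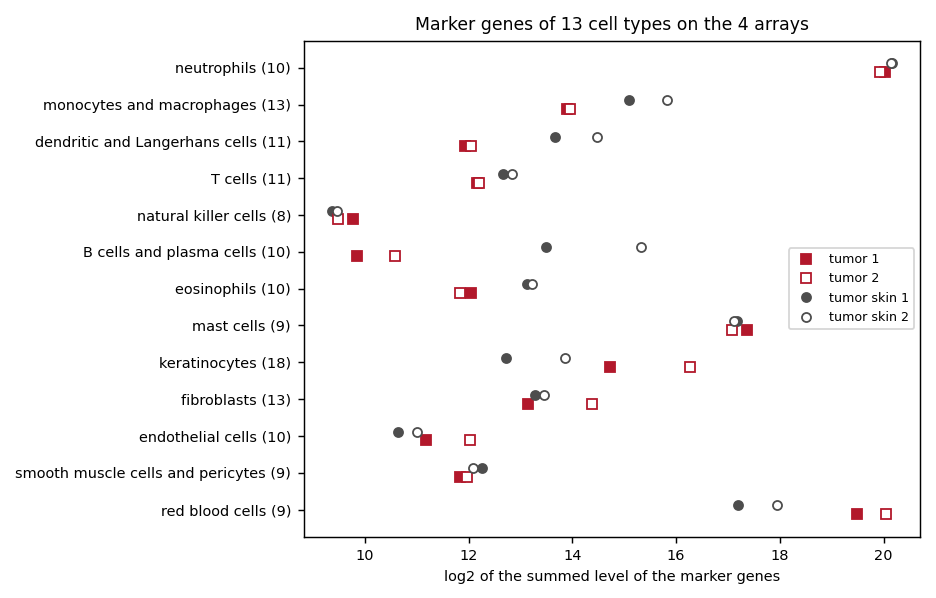
Log2 of the summed level of marker genes of 13 cell types on the 4 arrays, with the number of markers in brackets, red squares for tumor and grey circles for tumor skin. The 4 arrays lie closest together in neutrophil and mast cell markers. B cell, eosinophil, dendritic cell, monocyte and T cell markers are lower in tumor, and keratinocyte, endothelial and red blood cell markers are higher. The B cell sums in tumor skin rest mostly on Igj.

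The largest rises were genes of the cornified envelope, the protein shell of outer skin cells. The 15 largest, among called genes with a symbol and with no overlap of the groups in either source, held Sprr2d, Sprr1b, Ppbp, Krt6b, Sprr2f, Sprr2g, Sprr1a, Sprr2a2, Prl2c5, Sprr2h, Lce3a, Lce3c, Sprr2e, Cnfn and Defb14, between 4.0 and 6.22 on the log2 scale. For 11 of these 15 the probe was not well above background on tumor skin 2, namely all but Krt6b, Sprr1a, Sprr2a2 and Cnfn, so that the sizes of these 11 rises and their order are uncertain. In the scanner output the log2 fold changes of the 15 were 2.74 to 6.31 and 5 were called. Sprr2d had levels of 12.85 and 13.58 in tumor against 7.50 and 6.48 in tumor skin, a 74.5-fold rise (log2 fold change 6.22, SE 0.46, limma adjusted p = 0.000644), and its log2 fold change was 3.89 in the scanner output (limma adjusted p = 0.141). Sprr1b stood at 10.31 and 12.53 in tumor against 5.14 and 5.46 in tumor skin (log2 fold change 6.12, SE 0.67, limma adjusted p = 0.0024), and Krt6b, a keratin of wounded and tumor skin, at 11.63 and 13.18 in tumor against 6.43 and 7.33 in tumor skin (log2 fold change 5.53, SE 0.60, limma adjusted p = 0.0024). In each, tumor 2 was higher than tumor 1 and both lay above tumor skin. Of the Sprr genes, a family chosen after its values were seen, 13 of 15 were at the level minimum and 11 of these rose, at a median of 4.79, and 10 were kept for all 4 omissions. Their probes are partly alike, as those of Sprr2d and Sprr2e share 34 of 60 bases and those of Sprr2g and Sprr2i 39, so that members may read each other, and the 3 probes of Sprr2a2 ranged from -0.18 to 4.91, with the brightest at 0.09. Prl2c5, a relative of prolactin, had levels of 8.46 and 12.28 in tumor against 5.0 and 6.14 in tumor skin (log2 fold change 4.80, SE 1.12, limma adjusted p = 0.0343), and lost the call without tumor 2 (0.12), tumor skin 1 (0.128) and tumor skin 2 (0.0693). Its tumor arrays were further apart than its tumor skin arrays.

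The largest falls were of another kind. The 15 largest by the same rule held Igj, Retnla, Krt35, Gzmc, Camp, Ngp, Ear2, Inpp5j, Pou2af1, Cd79b, Ear1, Ear11, G6pdx, Ren2 and Xpc, from -7.13 to -2.61. Igj, the joining chain of secreted antibodies, had levels of 7.08 and 7.13 in tumor against 13.26 and 15.20 in tumor skin (log2 fold change -7.13, SE 0.84, limma adjusted p = 0.00336). Retnla, a secreted product of alternatively activated macrophages and eosinophils, stood at 8.39 and 7.61 in tumor against 13.05 and 12.91 in tumor skin, 31.5-fold lower in tumor (log2 fold change -4.98, SE 0.28, limma adjusted p = 0.000305). Xpc, which recognises DNA damage for repair, had levels of 9.92 and 9.31 in tumor against 12.52 and 11.93 in tumor skin (log2 fold change -2.61, SE 0.31, limma adjusted p = 0.00349). All tumor arrays lay below all tumor skin arrays. The Ear genes, eosinophil ribonucleases, are a family chosen after its values were seen. Of the 6 members with a symbol in the reference used, 5 were at the level minimum, and these 5 fell, at a median of -2.72. Ear7 and Ear12 were also at the level minimum but are outside this count, and their changes are not given here. Ear2 stood at 9.15 and 8.02 in tumor against 11.70 and 12.06 in tumor skin (log2 fold change -3.29, SE 0.47, limma adjusted p = 0.00617). The probes of Ear1 and Ear7 share 46 of 60 bases. Epx, eosinophil peroxidase, was below the level minimum, at 5.04 and 5.32 in tumor against 5.07 and 5.01 in tumor skin, and was well above background on tumor 1 and tumor skin 1 only. Pou2af1 and Cd79b belong to B cells, and Krt35 to hair. Pou2af1 lost the call without tumor 1 (0.119), tumor 2 (0.147) and tumor skin 2 (0.115), Cd79b without tumor 1 (0.0504), tumor 2 (0.112) and tumor skin 2 (0.0691), Krt35 without tumor 1 (0.0622) and tumor 2 (0.0504) and Gzmc without tumor 2 (0.0685).

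**Figure D4:**
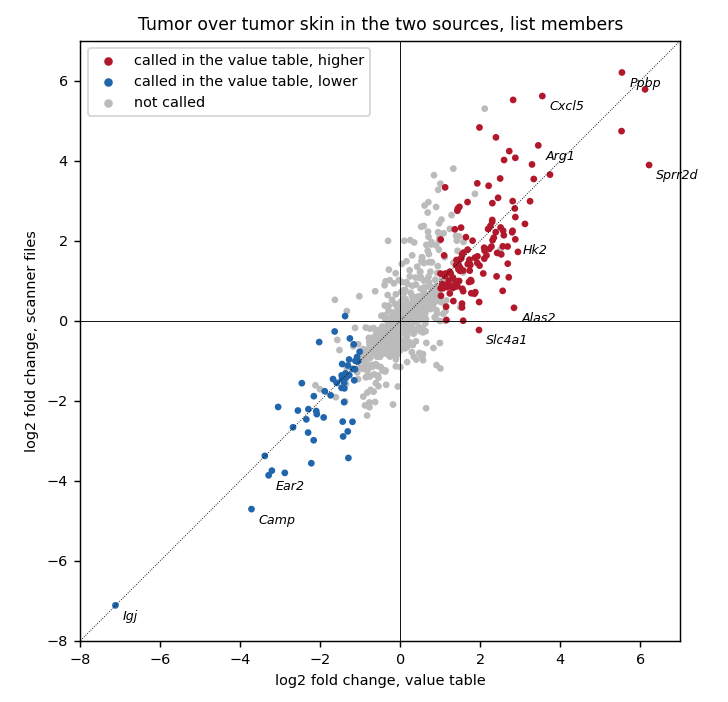
Log2 fold change of tumor over tumor skin for list members at the level minimum in the deposited value table (horizontal) against the scanner output (vertical), 1 point per gene, with called genes in color and the dotted line marking equal values. Camp, Ear2, Cxcl5 and Arg1 lie further from 0 in the scanner output and Igj lies on the line, while Alas2 and Slc4a1 of red blood cells are near 0 there.

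The same direction was common at the benign stage, in a comparison that shares no array with this one. Of the papilloma columns, papilloma skin 1 ranked closer to the scanner output of tumor 2 (Spearman's correlation 0.92) than to its own (0.59), and papilloma 2 and papilloma 3, which are of 1 group, each ranked closest to the output of the other, so that the papilloma effects and the stage differences below carry this doubt. In papilloma over papilloma skin 844 genes rose and 407 fell, 4.49% and 2.16% of the 18817 at the level minimum. Of the 957 rises 434 were also rises in papilloma over papilloma skin (45.4% of the rises in tumor and 51.4% of the 844 in papilloma), and of the 559 falls 246 were shared (44% and 60.4% of 407). Without papilloma skin 1 the shared rises were 349 of 608 in papilloma (57.4%) and the shared falls 210 of 342 (61.4%). The sign was the same for 912 of the rises and 522 of the falls. The share of same signs over all genes at the level minimum was not counted, so that these 2 counts are a description. Hk2 had a log2 fold change of 2.87 in tumor and 3.08 in papilloma, Nos2 of 2.81 and 2.89, Il1a of 3.34 and 3.21, and Camp of -3.72 and -4.13. The test of the difference between the effects called 31 genes, 9 higher and 22 lower in tumor, which is 0.0891% of 34797. Leaving out 1 array gave 0 to 8 such genes, with 0 without papilloma skin 1, tumor 1 or tumor 2, and the scanner output gave 0, with 10881 genes at an unadjusted p under 0.05 by limma.

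Of these 31, 11 are named, up to 8 per direction by size among those that have a symbol and are bright enough to measure. Hba-a1, a hemoglobin chain, had effects of 2.71 in tumor and -2.06 in papilloma, a difference of 4.77 (SE 0.61, limma adjusted p = 0.0428). Fech, which inserts iron into heme, differed by 2.46 in the same direction. The near identical Hba-a1 and Hba-a2 cannot be told apart with certainty by their probes. Dct, which makes melanin, had effects of -1.84 and 1.71, a difference of -3.55 (SE 0.45, limma adjusted p = 0.0428), and Mlana, the melanoma antigen of pigment cells, one of -2.56. Actg2 and Cspg4, of smooth muscle and pericytes, differed by -2.69 and -2.48, with papilloma effects of 3.59 and 1.85. None of the hypoxia, glycolysis, chemokine, cytokine, granule or suppression genes was among the 31. A p that misses the threshold does not show that their effects were the same at both stages, and Ppbp, for instance, had effects of 5.54 in tumor and 1.77 in papilloma.

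**Figure D5:**
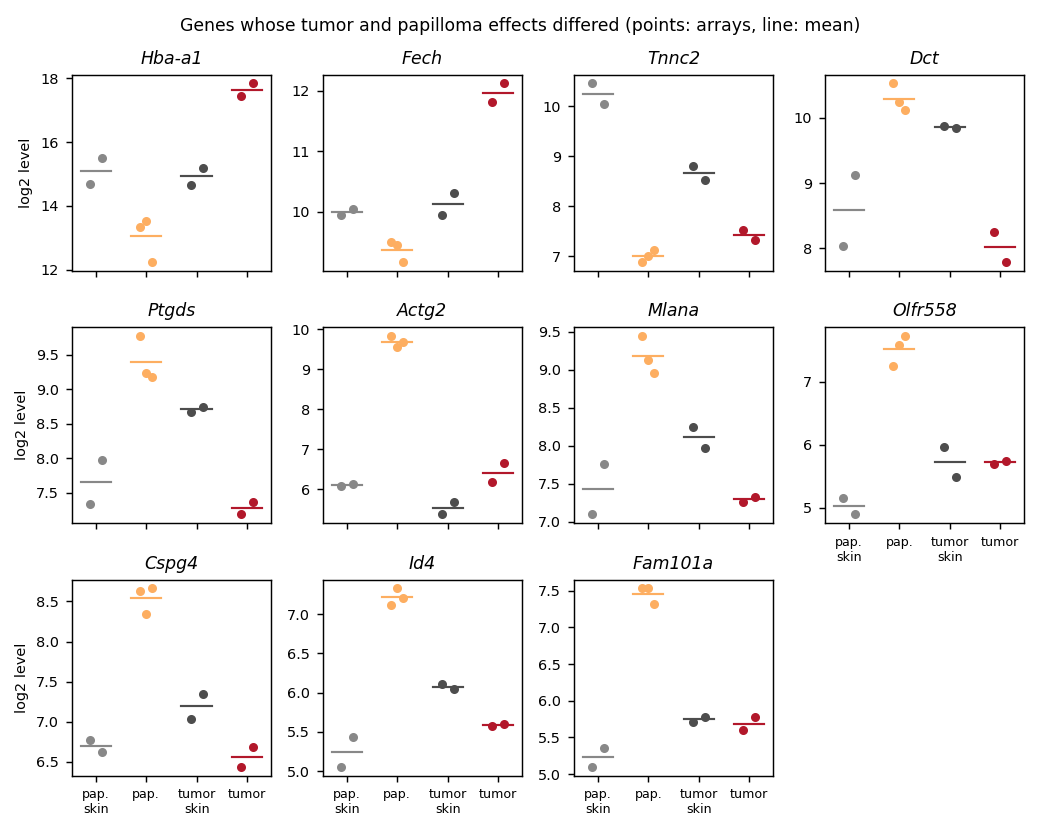
Log2 level on each array for the 11 named genes whose tumor effect differed from their papilloma effect, in papilloma skin, papilloma (pap.), tumor skin and tumor, with points for arrays and lines for group means. Hba-a1 and Fech are highest in tumor, and the other genes except Tnnc2 are highest in papilloma.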

How the data were processed

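Neutrophil RNA was hybridised to one-colour Agilent 8x60K mouse arrays, 9 arrays on 3 slides in 4 groups, assigned by sample title. The authors deposited a table of log2 values and the scanner output (Feature Extraction 10.7.3.1), whose intensity values, deposited as gProcessedSignal, served as the check. The methods name quantile normalization with limma and ComBat for the chip, and which of these steps the table holds is not given in the sources used here. Probes without a GeneName were left out, and the median over the probes of a name gave 34797 genes. A group-only fit on all 9 arrays (limma 3.58.1, R 4.3.3, 5 residual degrees of freedom) with Benjamini-Hochberg adjustment gave each contrast. Scanner values were quantile normalized on the log2 scale and corrected for slide with a ComBat step that had the groups as covariates. Tables were made with Python 3.11.15 and pandas 2.3.3.

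The arrays numbered 1 of all groups shared slide 1, papilloma skin 2, papilloma 2 and tumor 2 shared slide 2, and tumor skin 2 and papilloma 3 shared slide 3. Spots well above background made 90.7% and 94.3% on tumor skin 1 and tumor 1, and 44.2% and 64.2% on tumor skin 2 and tumor 2, and no spot was saturated. The number of arrays limits the precision. In simulated data of 34797 genes, 48% of 100 genes changed by 1.5 and 63% of 100 changed by 2 on the log2 scale were recovered in the tumor comparison.

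Genes were named when they were among the 15 largest called changes per direction with a symbol, signal well above background on both arrays of the brighter group and no overlap in either source, among the 6 largest called members of a list or its defining members, among the 8 largest stage differences per direction, or named in the study. Further called members of lists were named after their values were seen, to give the calls lost when an array was left out. Of the genes that the rule names, 1 is not reported here. The members and gene lists were chosen with earlier results of these data known. Promoters were matched by symbol to RefSeq on GRCm38.p6. Alternatives changed the source, the slide correction, the scaling, the level minimum, the fold threshold, the background filter, the fit, the unit and, in turn, each array.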

Additional observations from a re-analysis of the deposited data

Results flagged for a closer look

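For 11 named genes the effect of tumor over tumor skin differed from that of papilloma over papilloma skin by the limma test of the difference itself. The difference, tumor effect minus papilloma effect on the log2 scale, was 4.77 for Hba-a1 (limma adjusted p = 0.0428), 2.46 for Fech (0.0235) and 2.02 for Tnnc2 (0.0412). Tnnc2, troponin C of fast muscle, was lower in both lesions, by -1.22 in tumor and -3.24 in papilloma. In the other direction the difference was -3.55 for Dct (0.0428), -3.17 for Ptgds (0.0317), -2.69 for Actg2 (0.0219), -2.56 for Mlana (0.048), -2.51 for Olfr558 (0.0322), -2.48 for Cspg4 (0.0219), -2.46 for Id4 (0.021) and -2.29 for Fam101a (0.021). The scanner output called none of these differences. The cause of the differences was not tested.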

How the results depend on the processing

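The count of 1516 genes called between tumor and tumor skin was 217 with the scanner output and ComBat, 595 with its normexp correction, 23 with its 6 arrays of full signal range, and 0 with slide as a term (846 at an unadjusted p under 0.05 by limma), without slide correction (1125) or with 75th percentile scaling (660). In the value table it was 203 with slide as a term, 865 with only the 4 arrays, 2922 with no fold threshold, 2346 with probes as the unit, and between 603 (without tumor 2) and 1534 with 1 array left out. The setting of 6 scanner arrays left out tumor 1 and tumor skin 1, so that it compared tumor 2 alone with tumor skin 2 alone. Neither group had a replicate there, and its count cannot be weighed against the others. Median scanner signal was 264 on tumor 1 and 132 on tumor skin 1, against 46.7 on tumor 2 and 10.5 on tumor skin 2. The arrays numbered 1 share slide 1, and those numbered 2 lie on slides 2 and 3. Since any pairing is unknown, deviations from the group means were compared between arrays of the same number. Those of tumor 1 and tumor skin 1 correlated at 0.42 (0.56 in the scanner output), those of all pairs numbered 1 at -0.94 to 0.42 and numbered 2 at -0.72 to 0.57. A fit with the replicate number as a term, the replicate block, gave 582 calls. The 31 stage differences became 0 under all 6 scanner settings (472 to 11242 genes at an unadjusted p under 0.05 by limma), slide as a term (2405) and the replicate block (2642), 18 with a level of at least 7, 15 with probes as the unit, and between 0 (without papilloma skin 1, tumor 1 or tumor 2) and 8 with 1 array left out. The scanner 75th percentile moved the median of all 34797 genes to -0.12, and centring the value table to -0.10 from -0.01. Among 4568 values of 183 named genes under alternatives, 3169 kept direction and side of the threshold, 1386 kept direction and lost the call, 3 gained it and 10 turned direction. These were Cxcl10 (-0.0717) with the scanner slide term, Dcn (0.11, 0.0795, 0.27, 0.0428 and 0.32) with ComBat, slide term, no correction, 75th percentile and normexp, Slc4a1 (-0.23 and -0.29) and Usp18 (-0.0019 and -0.0608) with ComBat and slide term. The medians of up to 4 of 41 lists turned sign under a scanner setting. The causes were not tested. Signal over background limits values near 6, most of all on tumor skin 2.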

Other observations

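Collagen genes, a family chosen after its values were seen, had 24 of 44 members at the level minimum, of which 7 rose in tumor and none fell. Of these 7, Col4a1, Col4a2 and Col5a3 kept the call whichever array was left out, and the other 4, Col5a1, Col6a1, Col7a1 and Col18a1, were lost without tumor 2 and without tumor skin 1. Col4a1, a chain of the basement membrane collagen, had levels of 8.73 and 9.12 in tumor against 6.06 and 6.34 in tumor skin (log2 fold change 2.73, SE 0.19, limma adjusted p = 0.000506), and Col5a3 rose by 2.63. The log2 fold changes of Col4a1 and Col5a3 were 3.91 and 3.01 in papilloma over papilloma skin. Neither probe was well above background on tumor skin 2. Late cornified envelope genes had 5 of 17 members at the level minimum, of which Lce3a, Lce3b and Lce3c rose by 4.44, 3.34 and 4.26, and all 3 were kept for the 4 omissions. Keratins had 6 rises and 3 falls among 39, at a median of 0.20. Without tumor 2 the rises of Krt6a and Krt6b were kept and the other 4 were lost, and the falls of Krt222, Krt28 and Krt35 were all lost without tumor 1 and also without tumor 2. The part of fibroblasts, endothelial cells and keratinocytes in these values was not tested.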
